A study of Mus musculus with 3 samples.

Results

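Endothelial cells of the aorta were taken from the 3 single-cell libraries by their marker genes. A cell was counted as endothelial when it carried at least 200 genes and under 20% mitochondrial UMIs (unique molecular identifiers, 1 for each captured transcript), at least 5 UMIs over *Cdh5*, *Pecam1*, *Tie1*, *Egfl7* and *Ptprb* of which at least 1 came from *Cdh5* or *Tie1*, under 1% of its UMIs from the smooth muscle genes *Acta2* and *Tagln*, and under 3 UMIs from the macrophage genes *C1qa*, *C1qb* and *C1qc*. By this rule 119 of 26757 cells were endothelial, of which 92 were from the *APOE2* library, 9 from the *APOE3* library and 18 from the *APOE4* library. The low numbers in *APOE3* and *APOE4* set how finely every value below could be measured.

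The mice carried a human *APOE* gene that had replaced their own *Apoe* gene, on the C57BL/6J background. The 3 genotypes were *APOE2*, *APOE3* and *APOE4*. All were male, 12 weeks of age when a Western diet of 42% fat and 0.2% cholesterol began, and were kept on it for 16 weeks, so that a human apoE isoform and the diet were common to every group. Collagenases and elastase were used to digest aortas cleared of fat, over their length from arch to iliac bifurcation. The cells of all mice of a genotype (6 for *APOE2*, 5 for *APOE3*, 7 for *APOE4*) went into 1 library. With 1 pooled library for each genotype there was no replicate and no test between genotypes could be made. The 95% intervals given below cover counting error only, and say nothing about differences between mice, digestions or library preparations, which cannot be told apart from genotype.

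Endothelial cells line every vessel and hold the barrier between blood and wall through junction proteins such as VE-cadherin and claudin-5. The endothelium of a large artery faces high shear and carries connexins and Notch and SOX17 programmes, while the capillaries that feed adipose tissue, muscle and the outer wall take up fatty acids with the help of GPIHBP1, CD36 and fatty acid binding proteins. Lymphatic endothelium is specified by PROX1 and drains fluid from the outer layer of the wall. An aorta digested whole can hold all of these, since its adventitia carries small vessels of its own.

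The endothelial share of cells was 0.782% in *APOE2* (95% Clopper-Pearson interval 0.630 to 0.958), 0.134% in *APOE3* (0.0611 to 0.253) and 0.218% in *APOE4* (0.129 to 0.345). The *APOE2* share was 5.85-fold that of *APOE3*, a log2 ratio of 2.55 (interval 1.56 to 3.72). It was 5.44-fold with at least 10 marker UMIs. With each cell thinned to 3000 UMIs it was 11.5-fold, from 57 *APOE2* and 3 *APOE3* cells. That setting left out cells under 3000 UMIs and asked for fewer marker UMIs than the rule. With neither the smooth muscle nor the C1q limit it was 11.8-fold, which took in 94 further *APOE2* cells that carried smooth muscle genes. *APOE4* stood between, with a log2 ratio of 0.71 to *APOE3* whose interval (-0.52 to 2.05) held 0. The *APOE4* share was 1.63-fold that of *APOE3*, and 3.56-fold with each cell thinned to 3000 UMIs. The *APOE4* to *APOE2* log2 ratio was -1.84 (interval -2.66 to -1.10). Since the 3 ratios are built from the same 3 libraries, they are not independent of each other.

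**Figure D1:**
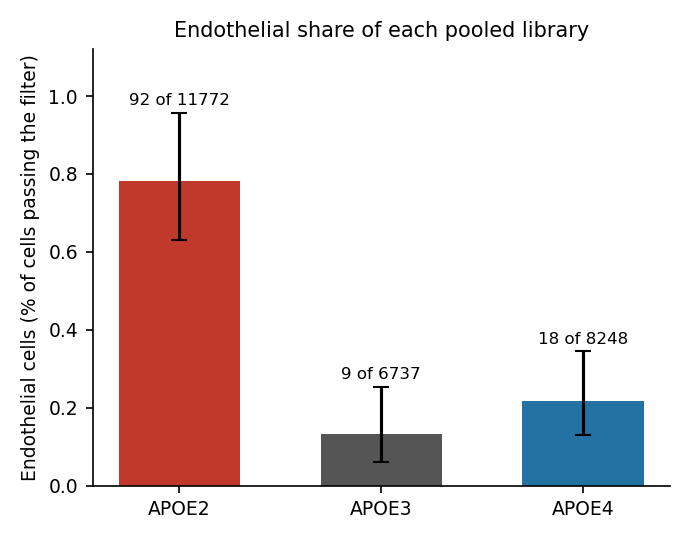
Endothelial cells as a percent of all cells passing the filter (vertical axis) in the 3 pooled libraries, with 95% Clopper-Pearson intervals as bars and the cell counts above. The *APOE2* interval (0.630 to 0.958%) lies above those of *APOE3* and *APOE4*, which overlap each other.

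Summed over the endothelial cells there were 1209451 UMIs for *APOE2*, 108209 for *APOE3* and 136901 for *APOE4*. Their median depth was 8023.5 UMIs for *APOE2*, 8771 for *APOE3* and 5944.5 for *APOE4*, which was below the median of all cells in each library (12047, 17618 and 13521.5 UMIs). One deep cell held 34.5% of the endothelial UMIs of *APOE3* and another 19.8% of those of *APOE4*, against 7.16% in *APOE2*. A gene counted 0 times in the endothelial cells could still have been present at the level of 3 counts, which was 2.48 CPM (counts scaled to a total of 1000000 UMIs) for *APOE2*, 27.7 CPM for *APOE3* and 21.9 CPM for *APOE4*. Cell barcodes shared between libraries numbered 26 for *APOE2* and *APOE3*, 14 for *APOE4* and *APOE3* and 27 for *APOE4* and *APOE2*, and none of them was an endothelial cell.

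The 5 marker genes chose the cells, so their levels are a description. *Cdh5*, the VE-cadherin of endothelial junctions, stood at 323 CPM in the *APOE2* cells, 370 CPM in the *APOE3* cells and 431 CPM in those of *APOE4*. All other cells are here the 26543 cells that did not have 5 marker UMIs with 1 from *Cdh5* or *Tie1*, since 94 *APOE2* cells and 1 *APOE4* cell that had them but did not meet the limits on smooth muscle or C1q genes were put in neither set. In all other cells *Cdh5* was at 0.26, 0.04 and 0.06 CPM, and at 0.904 CPM in *APOE2* with the 94 cells counted among them. *Tie1*, a receptor of the angiopoietin pathway found on endothelium, was at 150.5, 166 and 197 CPM, and in all other cells at 0.04, 0.02 and 0.02 CPM, with 0.431 CPM in *APOE2* when the 94 cells are counted. *Pecam1*, the junction molecule CD31, was at 1427, 1442 and 1665 CPM. It was also present in all other cells at 35.1, 26.7 and 39.1 CPM. *Egfl7*, a secreted endothelial factor, was at 1086, 1266 and 869 CPM, and *Ptprb*, the phosphatase VE-PTP that acts on junctions and TIE2, at 884, 1543 and 1381 CPM. For none of the 5 genes did libraries differ by 2-fold.

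The 250 bases before the RefSeq start site of *Tie1* (GRCm38.p6, minus strand, chr4:118489850-118490099) are shown because ETS factors such as ERG are known to act at many endothelial promoters. Capitals mark the letters AGGAA or their reverse complement TTCCT, 1 of the forms in which an ETS core can occur. Other forms were neither marked nor counted.
Tie1: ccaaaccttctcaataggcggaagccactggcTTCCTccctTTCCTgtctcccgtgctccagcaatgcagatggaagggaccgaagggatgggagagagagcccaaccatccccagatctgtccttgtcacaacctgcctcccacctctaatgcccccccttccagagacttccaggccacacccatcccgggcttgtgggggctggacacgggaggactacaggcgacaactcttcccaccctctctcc
The window held 2 matches, both on the reverse strand. Across all 32851 mouse promoter windows of this length 60.3% held at least 1 match on either strand, and of the 4 windows matched to marker genes 3 did (2 of the 5 genes were matched). A match of letters is a description of the sequence and not of binding.

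The label of the cells was checked on 31 endothelial genes outside the rule. All 31 had UMIs in each library's endothelial cells, and together they made up 8859 CPM for *APOE2*, 10443 CPM for *APOE3* and 8444 CPM for *APOE4*, against 298, 254 and 244 CPM in all other cells. The gene that stood farthest above other cells in the library where the gap was smallest was *Gpihbp1*, which anchors lipoprotein lipase on the luminal surface of capillaries. *Gpihbp1* was at 331 CPM in the *APOE2* endothelial cells and 0.387 CPM in the other *APOE2* cells, a log2 ratio of 9.74. *Cldn5*, the claudin of endothelial tight junctions, was at 722 CPM against 1.29 CPM there, a log2 ratio of 9.13. *Adgrl4*, *Sox17*, *Arhgef15*, *Gkn3*, *Cyyr1*, *Btnl9*, *Myct1* and *She* completed the 10 leading genes, with log2 ratios in *APOE2* between 8.60 and 9.48. The smallest of the 3 ratios was that of *APOE2* for each of these 10 genes. With the 94 cells counted as other cells the same 10 genes led, *Gpihbp1* was at 0.814 CPM in the other *APOE2* cells, and the *APOE2* log2 ratios of the 10 genes lay between 7.92 and 8.67.

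Markers of macrophages and lymphocytes were close to absent. The macrophage list (10 genes, of which the rule limits 3) came to 18 UMIs for *APOE2* and 1 UMI each for *APOE3* and *APOE4*, with *Cd68* and *Adgre1* at 0 in *APOE2*. T lymphocyte genes gave 1, 0 and 0 UMIs, and the 4 B lymphocyte genes gave none in any library. Erythroid genes gave 656 UMIs in *APOE2*, 615 of them in 1 cell, and 2 and 10 in the other libraries. The smooth muscle list, of which the rule limits 2 genes, came to 704 CPM for *APOE2*, 933 CPM for *APOE3* and 1695 CPM for *APOE4*, with *Acta2* its most abundant gene in *APOE2* and *Tagln* in the other two. The fibroblast list came to 3327 CPM in the *APOE2* cells, 249.5 CPM in the *APOE3* cells and 2915 CPM in those of *APOE4*. Its most abundant gene was *Dcn* in *APOE2* and *APOE4* and *Pi16* in *APOE3*, where *Pdgfra*, *Lum* and *Dpt* were at 0. The pericyte list came to 57.9 CPM for *APOE2*, 564 CPM for *APOE3* and 285 CPM for *APOE4*, and was led by *Rgs5* in the latter pair, where 97.9% and 89.7% of the *Rgs5* UMIs came from 1 cell. The part of these other genes in the differences described below was not tested, other than where values without the cells concerned are given.

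The endothelial cells fell on an artery side and a capillary side. A cell was put on the side whose list of 16 genes gave it more UMIs, after cells with lymphatic genes (at least 3 UMIs over *Prox1*, *Mmrn1*, *Flt4*, *Ccl21a* and *Reln*, with *Prox1* or *Mmrn1* among them) had been set apart. In *APOE2* 49 cells were on the artery side, 37 on the capillary side and 6 were lymphatic. In *APOE3* the numbers were 4, 4 and 1, and in *APOE4* they were 13, 5 and 0. No cell was left undecided. Such a split is a range cut in 2 and not a pair of types, yet few cells lay near the cut: 4 cells on each side, over the 3 libraries, had between 25 and 75% of their list UMIs from capillary genes.

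**Figure D2:**
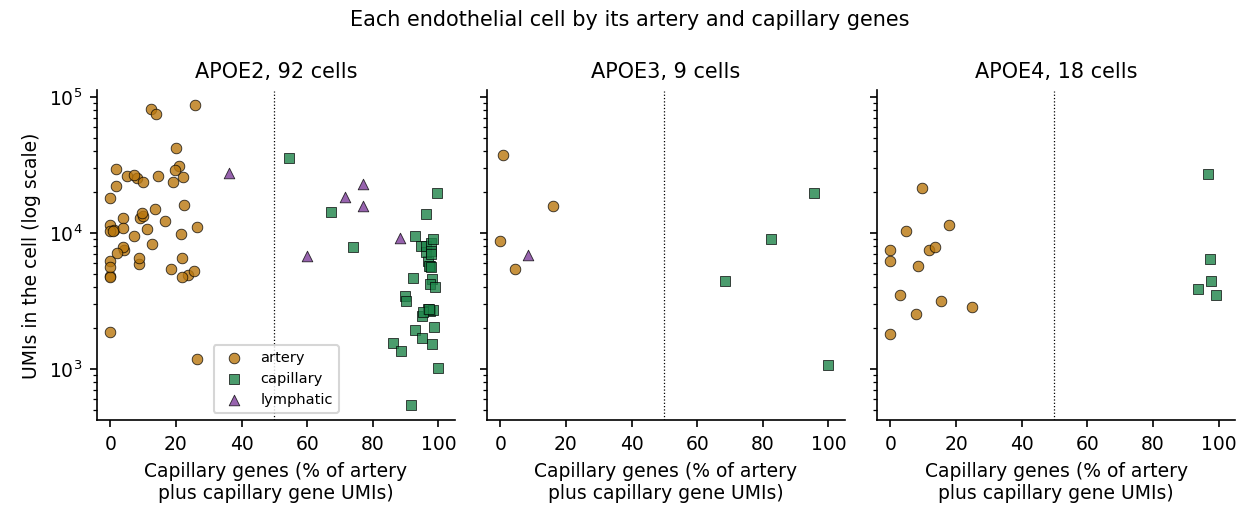
Each endothelial cell by the percent of its artery and capillary gene UMIs that came from capillary genes (horizontal axis) and its total UMIs (vertical axis, log scale), by library. The dotted line is the cut at 50%; 49, 4 and 13 cells lie on the artery side and 37, 4 and 5 on the capillary side, with most cells near the ends of the axis.

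The capillary share of endothelial cells was 40.2% in *APOE2* (95% interval 30.1 to 51.0), 44.4% in *APOE3* (13.7 to 78.8) and 27.8% in *APOE4* (9.69 to 53.5). The 3 intervals overlapped, and the log2 ratio of the *APOE2* to the *APOE3* share was -0.14 (interval -1.62 to 1.81). A difference in the make-up of sides was therefore not detectable at this depth. Cells on the capillary side were shallower, with median depths of 4596, 6733.5 and 4452 UMIs against 11141, 12230 and 6227 UMIs on the artery side. One cell held 57.3% of the capillary side's UMIs in *APOE3* and 59.8% in *APOE4*, and 1 held 55.5% of the artery side's UMIs in *APOE3*.

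The genes of both lists were used by the split, so their levels on a side are a description. *Cytl1* (chr5:37735519-37739820, plus strand, GRCm38), which encodes a small secreted cytokine-like protein, marked the artery side in each library. It was at 4046 CPM in *APOE2* (interval 3914 to 4182; 46 of 49 cells), at 5857 CPM in *APOE3* (5292 to 6464; 4 of 4 cells) and at 5295 CPM in *APOE4* (4834 to 5788; 13 of 13 cells). On the capillary side *Cytl1* was at 287 CPM in *APOE2*, from 4 cells, and had 0 UMIs in both other libraries. To compare shares of cells across depths, each cell was thinned to 1000 UMIs. *Cytl1* was then seen in 38 of 49, 4 of 4 and 11 of 13 artery-side cells, and in 0.967%, 1.11% and 0.449% of the smooth muscle-rich other cells of the same libraries.

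Other artery genes were present at lower counts. *Gja4*, the connexin 37 of arterial gap junctions, was at 255 CPM on the artery side of *APOE2* (32 of 49 cells), 119 CPM in *APOE3* (8 UMIs, all from 1 cell) and 153 CPM in *APOE4* (8 of 13 cells). *Gja5*, the connexin 40 partner of *Gja4*, was at 141 CPM, 208 CPM and 251 CPM, with no UMI on any capillary side. *Bmx*, a tyrosine kinase of arterial endothelium, was at 314 CPM in the *APOE2* cells (38 of 49 cells), 416 CPM in the *APOE3* cells (4 of 4 cells) and 928 CPM in those of *APOE4* (11 of 13 cells). Its *APOE4* interval (741 to 1147 CPM) lay above both others, and the *APOE4* to *APOE2* log2 ratio was 1.56 (1.19 to 1.92) on this side. *Fbln5*, an elastic fibre protein, went the other way, at 645 CPM for *APOE2*, 996 CPM for *APOE3* (82.1% of UMIs from 1 cell) and 153 CPM for *APOE4*, an *APOE4* to *APOE2* log2 ratio of -2.08 (-2.96 to -1.32). Over the artery list on this side, 3 genes were higher past 2-fold and 2 lower of 12 compared for *APOE2* to *APOE3* (14.6% and 9.42% of all genes), 2 and 1 of 10 for *APOE4* to *APOE3* (11.6% and 7.38%, or 19% in either direction) and 2 and 2 of 11 for *APOE4* to *APOE2* (8.49% and 8.64%). Without the *APOE2* and *APOE4* cells rich in the fibroblast gene *Dcn*, described at the end, the first pair had 2 higher and 3 lower of 13 (10.7% and 8.36%), and the *Bmx* and *Fbln5* log2 ratios were 1.35 and -1.67.

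The 250 bases before the start sites of *Cytl1* (chr5:37735269-37735518, plus strand) and *Gja4* (chr4:127314040-127314289, minus strand) are shown as members of the artery list with the same letters in capitals, again from RefSeq on GRCm38.p6.
Cytl1: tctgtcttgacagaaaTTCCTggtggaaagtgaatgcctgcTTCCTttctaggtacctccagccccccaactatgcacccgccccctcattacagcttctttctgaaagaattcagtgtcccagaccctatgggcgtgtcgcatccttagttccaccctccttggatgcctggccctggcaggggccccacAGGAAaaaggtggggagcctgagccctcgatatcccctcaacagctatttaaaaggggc
Gja4: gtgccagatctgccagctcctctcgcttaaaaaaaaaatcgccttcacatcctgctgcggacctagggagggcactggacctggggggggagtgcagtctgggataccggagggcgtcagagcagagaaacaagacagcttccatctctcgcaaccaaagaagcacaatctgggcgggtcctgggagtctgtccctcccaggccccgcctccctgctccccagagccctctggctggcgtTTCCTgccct
The letters AGGAA or TTCCT were found 3 times in the *Cytl1* window and 1 time in that of *Gja4*. Over the artery list, 11 of the 16 windows of its 14 matched genes held a match, beside the 60.3% of all promoters.

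The capillary side was marked in each library by genes of fatty acid uptake. *Fabp4*, a fatty acid binding protein of capillary endothelium and adipocytes, was at 23752 CPM in *APOE2* (36 of 37 cells), at 16456 CPM in *APOE3* (4 of 4 cells) and at 26070 CPM in *APOE4* (5 of 5 cells). It was not restricted to endothelium, since after thinning to 1000 UMIs it was also seen in 26.4%, 13.0% and 12.2% of the smooth muscle-rich other cells. *Cd36*, a fatty acid translocase, was at 2573 CPM (35 of 37 cells), 1793 CPM (3 of 4 cells) and 1369 CPM (5 of 5 cells), with no UMI on any artery side. *Gpihbp1* was at 1686 CPM in the *APOE2* cells (30 of 37 cells), 529 CPM in the *APOE3* cells (2 of 4 cells) and 706 CPM in those of *APOE4* (5 of 5 cells), and likewise had no UMI on any artery side.

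*Rbp7* (chr4:149449687-149454978, minus strand, GRCm38), a retinol binding protein of the fatty acid binding protein family that is known from capillaries of fat and heart, differed most among the capillary genes. On the capillary side it was at 3251 CPM in *APOE2* (interval 3022 to 3493), from 748 UMIs in 33 of 37 cells. In *APOE3* it was at 117.5 CPM (32.0 to 301), from 4 UMIs in 1 of 4 cells. In *APOE4* no UMI was counted in 5 cells, where 3 counts would equal 66.2 CPM. The *APOE2* level was 27.7-fold that of *APOE3*, a log2 ratio of 4.79 (3.43 to 6.67). *APOE4* was 49.1-fold lower than *APOE2* with its 0 set at 3 counts, a log2 ratio of -5.62 whose interval ended at -5.32. Thinned to 1000 UMIs, *Rbp7* was seen in 27 of 36 *APOE2* cells on the capillary side and in 0 of the 4 *APOE3* cells and 0 of the 5 *APOE4* cells. All other cells held *Rbp7* at 1.20, 0.09 and 0.04 CPM, or at 2.56 CPM in *APOE2* with the 94 cells that failed the limits. In *APOE2* no cell gave more than 12.7% of these UMIs, so the level there was not that of 1 cell.

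The 250 bases before the *Rbp7* start (chr4:149454969-149455218, minus strand, RefSeq on GRCm38.p6) are shown for the capillary list gene whose level differed most on this side, with AGGAA in capitals.
Rbp7: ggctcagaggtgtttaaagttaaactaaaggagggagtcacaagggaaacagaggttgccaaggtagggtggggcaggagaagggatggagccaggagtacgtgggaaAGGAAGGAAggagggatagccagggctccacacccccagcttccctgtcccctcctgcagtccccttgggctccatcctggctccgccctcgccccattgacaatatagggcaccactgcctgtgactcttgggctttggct
The window held 2 overlapping matches. Over the capillary list, 7 of the 11 windows of its 10 matched genes held a match, near the 60.3% of all promoters.

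**Figure D3:**
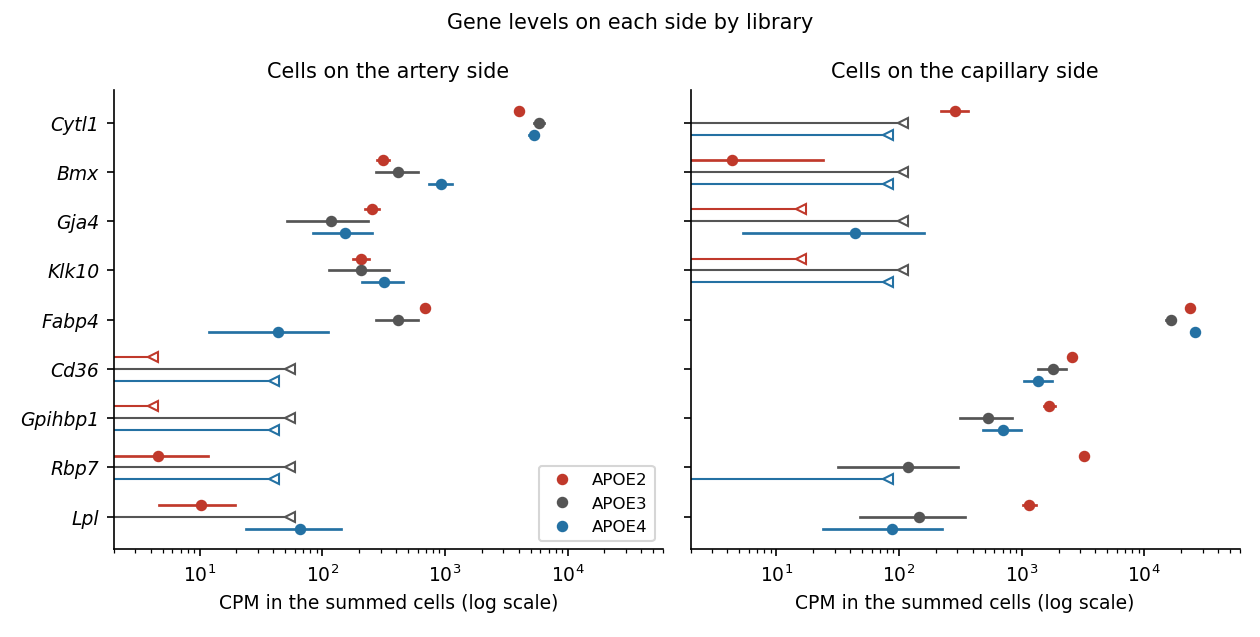
Levels of 4 artery and 5 capillary genes in CPM (horizontal axis, log scale) in the summed cells of the artery side (left) and the capillary side (right) of each library, with exact Poisson 95% intervals as lines. Open triangles mark genes with 0 UMIs at the upper limit of their interval; *Rbp7* reached 3251 CPM on the capillary side of *APOE2* and 117.5 CPM in *APOE3*.

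*Rbp7* was not alone among the capillary genes in standing highest in *APOE2*. A gene was compared between libraries when it had at least 100 CPM in 1 of them and at least 20 UMIs in both together, and was counted as past 2-fold at a ratio of 2 or more. On the capillary side of *APOE2* against *APOE3*, 10 of the 16 capillary list genes compared were higher past 2-fold and 2 were lower, with a median log2 ratio of 1.28. Over all 1982 genes compared there, 17.3% were higher and 14.1% lower, with a median of -0.06. *APOE4* against *APOE2* gave 8 of 15 lower and 1 higher, with a median of -0.92, where 17.6% of all genes were lower and 9.38% higher. *APOE4* against *APOE3* gave 2 of 9 higher and 0 lower, with a median of 0.40, where 31.9% of 596 genes were past 2-fold in either direction. All of this rests on 4 *APOE3* and 5 *APOE4* cells. Of the 4, 1 cell held 89 UMIs of the vein list, beside 47 of the capillary and 10 of the artery list. Without it, an alternative chosen after the values were seen, 9 of 16 capillary genes were higher in *APOE2* than in *APOE3* and 2 lower, with a median of 0.97, where 16.2% of 1980 genes were higher and as many lower. The *Rbp7* log2 ratio was then 4.34 (2.98 to 6.22).

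Early response genes, which tissue digestion is known to raise, also differed between *APOE3* and the others on each side. The list of 16 genes came to 15977 CPM on the capillary side of *APOE2*, to 36673.5 CPM in *APOE3* and to 16269 CPM in *APOE4*. On the artery side it was lowest in *APOE3*, at 3493 CPM against 11025 CPM in *APOE2* and 9553 CPM in *APOE4*. Of the 16 genes, 10 were lower past 2-fold in *APOE2* than in *APOE3* on the capillary side and 0 higher, with a median log2 ratio of -1.14, where 14.1% of all genes were lower. The artery side gave 11 of 15 higher and 1 lower for that pair, with a median of 1.35, where 14.6% of all genes were higher. *APOE4* against *APOE3* gave 8 of 16 lower and 0 higher on the capillary side (16.3% of all genes lower) and 9 of 14 higher and 1 lower on the artery side (11.6% higher). *APOE4* against *APOE2* gave 5 higher and 3 lower of 16 on the capillary side, with a median of 0.12 (9.38% and 17.6% of all genes), and 1 higher and 0 lower of 15 on the artery side (8.49% and 8.64%). Without cells that held at least 10 UMIs of the fibroblast gene *Dcn* (*Dcn*-rich cells, described at the end), the artery side gave 5 higher and 2 lower of 13 for *APOE2* to *APOE3* (10.7% of all genes higher and 8.36% lower) and 5 higher and 2 lower of 12 for *APOE4* to *APOE3* (11.3% and 7.78%). The median mitochondrial share of UMIs in the endothelial cells also set *APOE3* apart, at 0.741% against 1.87% in *APOE2* and 1.88% in *APOE4*. *Hspa1b*, a heat shock protein whose reads may be divided with the near-identical *Hspa1a*, reached 7199.5 CPM on the capillary side of *APOE3*, with 60.4% of its UMIs from 1 cell, and 104 CPM on the artery side. The part of digestion and of RNA quality in the differences on either side was not tested.

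Lipoprotein lipase, *Lpl*, which is made by other cells and also found in capillary endothelium, was at 1152 CPM on the capillary side of *APOE2* (28 of 37 cells), 147 CPM in *APOE3* (5 UMIs from 1 cell) and 88.3 CPM in *APOE4* (4 UMIs). *Rgcc*, a regulator of complement response and the cell cycle seen in capillaries, was at 1065 CPM, 382 CPM and 441.5 CPM. *Cd300lg*, a receptor for lymphocyte binding on capillaries, was at 739 CPM, 323 CPM and 221 CPM. The water channel *Aqp1* ran the other way, at 947.5 CPM for *APOE2*, 2645 CPM for *APOE3* and 2671 CPM for *APOE4*, an *APOE2* to *APOE3* log2 ratio of -1.48 (-1.84 to -1.11). *Fabp5*, another fatty acid binding protein, was at 739 CPM, 617 CPM and 1457 CPM. *Tcf15*, a transcription factor that acts with *Meox2* in fatty acid-handling capillaries, was at 465 CPM and 419 CPM in *APOE2* and *APOE4* and at 88.2 CPM in *APOE3*, from 3 UMIs.

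Genes outside both lists also separated the sides within *APOE2*, where 26.9% of 2061 genes compared were past 2-fold in either direction. That share was 55.8% in *APOE3* and 33.7% in *APOE4* (12.3% higher and 21.4% lower on the capillary side), where few cells stood on a side. The cells were divided by their artery and capillary genes, so this too is a description. *Kdr*, the main VEGF receptor, was at 695 CPM on the capillary side and 18.2 CPM on the artery side, a log2 ratio of 5.25 (4.51 to 6.10). *Pparg*, the nuclear receptor that controls *Fabp4* and *Cd36* in fat, was at 217 CPM against 2.28 CPM, from 50 and 2 UMIs, a log2 ratio of 6.58 (4.65 to 9.66). *Sparcl1*, a matricellular protein, was at 643 CPM against 10.2 CPM, and *Adamts9*, a matrix protease, at 399.9 CPM against 3.41 CPM. The actin binding protein *Ablim3* was at 269 CPM against 2.28 CPM.

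Haemoglobin genes were also among the 8 genes highest on the capillary side, but 96.8% to 100% of the UMIs of *Hba-a1*, *Hba-a2* and *Hbb-bs* came from 1 cell. Erythroid genes gave 629 UMIs on this side, 97.8% of them in 1 cell.

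On the artery side, *Ptprj*, a receptor phosphatase that restrains growth factor signals, was at 501 CPM against 4.35 CPM, a log2 ratio of -6.85 for capillary to artery (-12.16 to -4.36). *Sfrp1*, a secreted inhibitor of WNT signals, was at 1233 CPM in *APOE2* and 1103 CPM in *APOE4*, and at 312 CPM in *APOE3*, while no capillary-side cell of any library had a UMI. *Gkn3*, a secreted gastrokine found on arterial endothelium, was at 398 CPM in *APOE2*, at 1323 CPM in *APOE3* and at 1135 CPM in *APOE4*, and also had no capillary-side UMI. *Spon1*, *Sulf2*, *Calml4* and *Ptprr* completed the artery-side genes, together with *Spp1*, of which 98.0% came from 1 cell. Of the genes with UMIs in *APOE3*, 6 of 7 capillary-side and 7 of 7 artery-side genes had the direction seen in *APOE2*, and the same held for 6 of 7 and 7 of 7 in *APOE4*. The exceptions were the haemoglobin genes *Hbb-bs* in *APOE3* and *Hba-a1* in *APOE4*, each from 1 UMI.

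The split had no class for veins, so genes often used for veins were read on the artery and capillary sides. Outside the lymphatic cells, 2 cells had more UMIs of the vein list than of either side's list, an *APOE2* cell on the artery side (33, with 8 artery and 0 capillary UMIs) and the *APOE3* cell on the capillary side given above. *Vwf*, the von Willebrand factor of platelet capture, was at 584 CPM on the artery side of *APOE2* and 130 CPM on the capillary side. *Nr2f2*, the transcription factor that specifies veins, was at 10.2 CPM on the artery side and 161 CPM on the capillary side of *APOE2*, with 0 UMIs on the artery side of both other libraries. *Selp*, the P-selectin that starts leukocyte rolling, was at 286 CPM on the artery side of *APOE2*, and in *APOE3* 37 of its 48 UMIs came from 1 capillary-side cell.

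Lymphatic genes were held by 7 cells, 6 of *APOE2* and 1 of *APOE3*. *Prox1*, the transcription factor that specifies lymphatic endothelium, gave 58 UMIs in these cells and 3 in all other endothelial cells. *Prox1*, *Mmrn1*, *Ccl21a*, *Reln* and *Flt4* were used to choose them. *Lyve1*, *Pdpn* and *Nts* were not, and 98.3%, 93.8% and 98.0% of their UMIs were in the 7 cells. *Lyve1* is the hyaluronan receptor, *Pdpn* the podoplanin and *Nts* the neurotensin of lymphatic vessels. *Tbx1* behaved otherwise, with 95 UMIs in 38 other endothelial cells and 23 in these. *Flt4*, the receptor VEGFR3, was also shared, with 24 UMIs outside these cells and 41 within.

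The lymphatic cells were not alike. In 4 of the *APOE2* cells *Lyve1*, *Pdpn*, *Mmrn1* and *Ccl21a* were present together, with 137 to 304 UMIs of *Ccl21a*, a chemokine that draws dendritic cells to lymphatic vessels. Another *APOE2* cell had 28 *Prox1* and 46 *Mmrn1* UMIs but none of *Lyve1*, *Pdpn* or *Ccl21a*. A further one met the rule on 4 *Prox1* UMIs alone and carried 24 *Fabp4* UMIs. The *APOE3* cell had 1 *Prox1*, 9 *Mmrn1* and 5 *Reln* UMIs. *Ccl21a* reads can be divided among near-identical *Ccl21* copies, and more than 1 gene ID carried the symbol, of which only the first was counted. The level of *Ccl21a* is therefore uncertain. With 0 lymphatic cells among 18, the share in *APOE4* could be up to 18.5% (95% interval), so an absence was not shown.

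**Figure D4:**
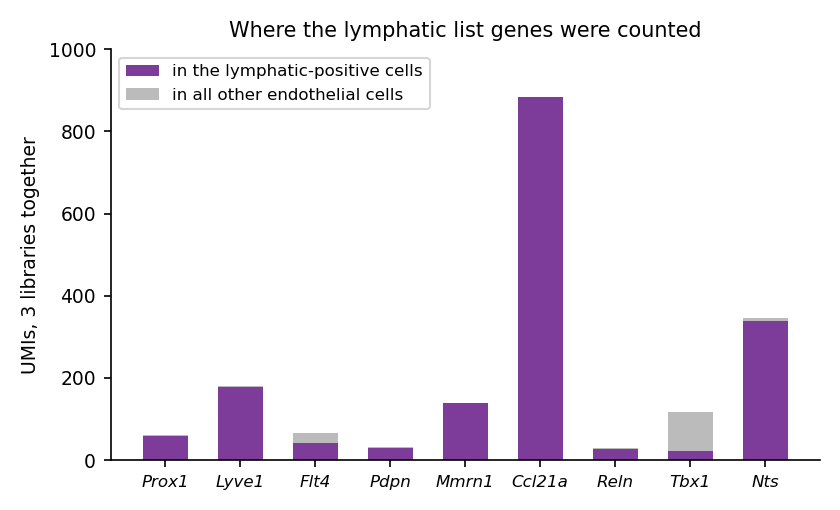
UMIs of the 9 lymphatic list genes over the 3 libraries together (vertical axis), in the 7 lymphatic cells (purple) and in all other endothelial cells (grey). *Ccl21a*, *Mmrn1* and *Prox1* are almost all purple, while 95 *Tbx1* UMIs are grey and 23 purple.

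Across all endothelial cells of 2 libraries, most genes differed by less than 2-fold. *APOE2* against *APOE3* had 315 of 2041 genes past 2-fold (15.4%; 8.82% higher and 6.61% lower), *APOE4* against *APOE3* had 301 of 1923 (15.7%; 8.22% higher and 7.44% lower) and *APOE4* against *APOE2* had 251 of 1975 (12.7%; 5.77% higher and 6.94% lower). These levels mix the sides, so a library with more UMIs from artery cells weighs artery genes more.

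Endothelial genes that the study named for activation and for lipid uptake did not all differ in 1 direction. *Pecam1*, which it also named, chose the cells and was left out, which left 9 genes. *APOE2* against *APOE3* had 2 of 9 higher past 2-fold and 1 lower, where 8.82% of all genes were higher and 6.61% lower. *APOE4* against *APOE3* had 0 higher and 1 lower of 8 compared (8.22% and 7.44% of all genes), and *APOE4* against *APOE2* had 0 higher and 2 lower of 9 (5.77% and 6.94%). In all endothelial cells the median log2 ratios of the named genes were -0.11, 0.21 and -0.21, beside -0.09, -0.04 and 0.00 over all genes compared. Without *Dcn*-rich cells the first pair had *Gpihbp1* and *Lpl* higher and 0 lower of 9 (7% and 5.92% of 2028 genes). *APOE4* against *APOE2* then had 0 higher and 3 lower of 9, *Gpihbp1*, *Lpl* and *Sox17* (5.98% and 7% of 1972 genes). The genes were picked by the study on these libraries, so they are no independent evidence of a direction.

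*Vcam1*, the adhesion receptor that holds monocytes, was at 1632 CPM in the *APOE2* cells, 610 CPM in the *APOE3* cells and 1023 CPM in those of *APOE4*. The *APOE2* to *APOE3* log2 ratio was 1.42 (1.07 to 1.80), and it turned to -0.16 (-0.54 to 0.24) once 18 *APOE2* cells and 1 *APOE4* cell with at least 10 UMIs of the fibroblast gene *Dcn* were left out. With the mean of each cell's CPM that ratio of *Vcam1* was 0.52. Over all endothelial cells without *Dcn*-rich cells the *APOE4* to *APOE2* log2 ratio of *Vcam1* was 0.97 (0.67 to 1.25). *APOE4* then stood above *APOE2*. On the artery side without those cells this ratio was 0.81 (0.50 to 1.11). On the capillary side, with *Dcn*-rich cells kept, it was -1.395 (-2.29 to -0.61). The *APOE4* to *APOE3* log2 ratio of *Vcam1* was 1.20 (0.69 to 1.73) on the artery side without *Dcn*-rich cells. It was -1.06 (-2.14 to -0.033) on the capillary side, and 1.36, a bound, there without the *APOE3* cell rich in vein genes. *Icam1*, which binds leukocyte integrins, was at 351 CPM, 397 CPM and 431 CPM. *Icam2*, an integrin ligand present at rest, was at 388 CPM, 444 CPM and 548 CPM, and *Esam*, a junction adhesion molecule, at 459 CPM, 444 CPM and 394 CPM. For these 3 genes each log2 ratio lay between -0.22 and 0.50. For *Icam1* on the artery side the order was different, at 369 CPM in *APOE2* against 178 CPM in *APOE3* and 186 CPM in *APOE4*, with 12 and 17 UMIs in the latter, and without *Dcn*-rich cells the *APOE2* to *APOE3* log2 ratio there was 0.32 (-0.55 to 1.33). Capillary-side levels ran the other way, at 296, 882 and 927 CPM, with 93.3% of the *APOE3* and 85.7% of the *APOE4* UMIs of *Icam1* from 1 cell. Without the *APOE3* cell rich in vein genes, the *APOE2* to *APOE3* log2 ratio of *Icam1* on that side went from -1.58 to 1.89 (-0.023 to 4.96).

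*Sox17*, a transcription factor of arterial identity, was at 121 CPM for *APOE2*, 305 CPM for *APOE3* and 58.4 CPM for *APOE4*, an *APOE2* to *APOE3* log2 ratio of -1.34 (-1.89 to -0.75). Of the 33 UMIs in *APOE3*, 26 came from 2 capillary-side cells, and 92.3% of those 26 from 1 of them. On the artery side alone the levels were 123 CPM, 104 CPM and 43.7 CPM, and the *APOE2* to *APOE3* log2 ratio was 0.24 (-0.85 to 1.59). The direction between *APOE2* and *APOE3* thus turned when the capillary-side cells were left out.

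Among the lipid genes, *Lpl* was at 233 CPM in *APOE2*, at 46.2 CPM in *APOE3* and at 73.1 CPM in *APOE4*, an *APOE2* to *APOE3* log2 ratio of 2.34 (1.10 to 3.97). *Gpihbp1* was at 331 CPM, 166 CPM and 234 CPM, and its log2 ratio of 0.99 (0.31 to 1.76) for *APOE2* to *APOE3* was just under 2-fold. *Cd36* was at 489 CPM, 564 CPM and 453 CPM. *Fabp4* was at 5038 CPM, 5434 CPM and 8656 CPM, but 84.0% of its *APOE3* UMIs and 66.2% of its *APOE4* UMIs came from 1 cell. Without the deepest cell of each library its *APOE4* to *APOE2* log2 ratio went from 0.78 to -0.51. Without *Dcn*-rich cells *Cd36* and *Fabp4* turned higher in *APOE2* than in *APOE3*, with log2 ratios of 0.56 (0.18 to 0.97) and 0.62 (0.50 to 0.75). Over the alternatives run, these ratios went from -0.71 to 0.87 for *Cd36* and from -0.67 to 1.31 for *Fabp4*. *Scarb1*, the HDL receptor, was the gene of the wider lipid list that was lower in *APOE2*, at 45.5 CPM against 120.1 CPM in *APOE3* and 139 CPM in *APOE4*. Over that list of 22 genes, *APOE2* against *APOE3* had 1 higher and 1 lower of 11 compared (8.82% and 6.61% of all genes), *APOE4* against *APOE3* had none of 10 (15.7% in either direction), and *APOE4* against *APOE2* had 2 higher and 1 lower of 11 (5.77% and 6.94%). The first pair had 2 higher, *Gpihbp1* and *Lpl*, and 0 lower of 11 without *Dcn*-rich cells (7% and 5.92% of 2028 genes), with *Scarb1* at a log2 ratio of -0.73. *APOE4* against *APOE3* then had 1 higher, *Fabp5*, and 0 lower of 10 (8.17% and 8.27% of all genes). For *APOE4* to *APOE2* the balance turned, with 1 higher, *Scarb1*, and 2 lower, *Gpihbp1* and *Lpl*, of 11 (5.98% and 7%). On the capillary side the list, which shares genes with the capillary list, had 6 of 14 higher and 0 lower for *APOE2* to *APOE3* (17.3% of all genes higher) and 0 higher and 4 lower of 14 for *APOE4* to *APOE2* (17.6% lower). The artery side had 1 higher, *Abca1*, and 2 lower, *Cav1* and *Cav2*, of 7 for *APOE2* to *APOE3* (14.6% and 9.42% of all genes). Without *Dcn*-rich cells it had 1 higher, *Fabp4*, and 0 lower of 6 (10.7% and 8.36%).

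**Figure D5:**
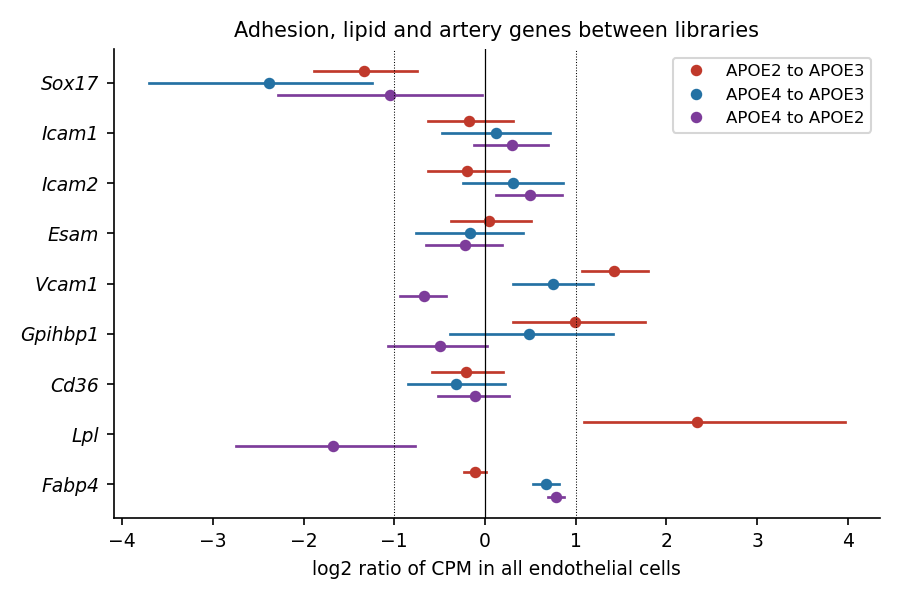
Log2 ratios of CPM in all endothelial cells (horizontal axis) for the 9 genes named by the study, for each pair of libraries, with exact conditional 95% intervals as lines. The dotted lines mark 2-fold; *Lpl* (2.34) and *Vcam1* (1.42) lie beyond it for *APOE2* to *APOE3* and *Sox17* (-1.34) on the other side, and *Lpl* had too few UMIs to be compared between *APOE4* and *APOE3*.

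Among genes of flow sensing, *Klf2*, the shear-induced transcription factor, was at 1218 CPM in the *APOE2* cells, 1109 CPM in the *APOE3* cells and 1030 CPM in those of *APOE4*. *Klf4*, its relative, was at 519 CPM, 656 CPM and 650.1 CPM, and neither gene differed by 2-fold. *Nos3*, which makes nitric oxide, was at 150.5 CPM, 203 CPM and 73.1 CPM, and its *APOE4* level from 10 UMIs was past 2-fold below both others. *Edn1*, the vasoconstrictor endothelin, was at 499 CPM, 203 CPM and 387 CPM, with 40.6% of the *APOE2* UMIs from 1 cell and an *APOE2* to *APOE3* log2 ratio of 0.20 without *Dcn*-rich cells. Over the flow list of 12 genes, 1 of 10 compared was higher in *APOE2* than in *APOE3* and none was lower, where 8.82% of all genes were higher and 6.61% lower. Without *Dcn*-rich cells 0 of 10 were past 2-fold (7% of 2028 genes higher and 5.92% lower). *APOE4* against *APOE3* had *Thbd*, the thrombomodulin of the anticoagulant surface, higher and *Nos3* lower of 9 compared (8.22% and 7.44% of all genes). *APOE4* against *APOE2* had 0 higher and 2 lower of 9, *Nos3* and *Slc9a3r2*, where 6.94% of all genes were lower.

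The wider adhesion and chemokine list gave 2 higher and 0 lower of 11 compared for *APOE2* to *APOE3*, *Cxcl1* and *Vcam1*, where 8.82% of all genes were higher and 6.61% lower, and neither difference held without *Dcn*-rich cells. The artery side had 4 of 10 higher and 0 lower, *Icam1* and *Sele* among them (14.6% of all genes higher), but 16 of the 49 *APOE2* cells there were *Dcn*-rich and 4 of 5 fibroblast genes compared were higher too. On that side 0 of 9 adhesion and chemokine genes were past 2-fold without *Dcn*-rich cells (10.7% of all genes higher and 8.36% lower). The capillary side had 2 higher and 3 lower of 11 (17.3% and 14.1%). The chemokine *Cxcl1* was at 193.5 CPM for *APOE2*, 64.7 CPM for *APOE3* and 336 CPM for *APOE4*, the middle value from 7 UMIs. Without *Dcn*-rich cells the *APOE2* to *APOE3* log2 ratio of *Cxcl1* turned to -0.38 (-1.57 to 1.04). Over the list 1 gene, *Cxcl12*, was then higher and 3, *Csf1*, *Sele* and *Selp*, were lower of 10 (7% and 5.92% of 2028 genes). *Sele*, the E-selectin of activated endothelium, had 194 UMIs in 16 *APOE2* cells, 32 in *APOE3* of which 26 were from 1 capillary-side cell, and 1 in *APOE4*. The *APOE4* to *APOE2* log2 ratio for *Sele* was -4.46, with an interval of -9.77 to -1.96. Without *Dcn*-rich cells, which left 50 of the *APOE2* UMIs, it was -3.16 (-8.49 to -0.61).

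Of the pan-endothelial genes, 0 of 26 compared were higher past 2-fold in *APOE2* than in *APOE3* and 4 were lower, *Cldn5*, *Erg*, *Mmrn2* and *Shank3*. Their median log2 ratio was -0.39, where 8.82% of all genes were higher and 6.61% lower with a median of -0.09. *Cldn5* was at 722 CPM in *APOE2*, at 1469 CPM in *APOE3* and at 782 CPM in *APOE4*. *APOE4* against *APOE3* had 0 of 27 higher and 5 lower, with a median of -0.22, where 7.44% of all genes were lower with a median of -0.04. *APOE4* against *APOE2* had 3 higher and 3 lower of 26, with a median of -0.17 (5.77% and 6.94% of all genes). Without *Dcn*-rich cells, 2 of 27 were higher in *APOE2* than in *APOE3* and only *Mmrn2* lower (7% and 5.92% of 2028 genes), and the log2 ratio of *Cldn5* was -0.39. *APOE4* against *APOE2* then had 1 higher and 4 lower of 28 (5.98% and 7% of all genes).

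The largest differences between libraries, among genes with at least 50 UMIs and no more than 50% of them from 1 cell, were led by genes of particular cells. In *APOE2* over *APOE3* they were *Ccl21a*, *Gpc6*, *Dcn*, *Rbp7* and *Sox4*. All 882 *Ccl21a* UMIs of *APOE2* were in lymphatic cells. *Dcn*, the decorin of fibroblasts, was at 2383 CPM, 83.2 CPM and 2264 CPM, where 99.0% of the *APOE4* UMIs came from 1 cell. Its *APOE2* to *APOE3* log2 ratio was 4.84 (3.91 to 5.97) and -0.036 (-1.06 to 1.16) without the *Dcn*-rich cells. *Gpc6*, a glypican, was at 317 CPM in *APOE2* and 9.24 CPM in *APOE3* from 1 UMI, a log2 ratio of 5.10 (2.61 to 10.41) that came to 2.94 without those cells. *Sox4*, a transcription factor of developing and activated cells, was at 391 CPM against 27.7 CPM, from 3 UMIs in *APOE3*, a log2 ratio of 3.82 (2.26 to 6.10) and 2.72 without those cells. *Rbp7* was at 677 CPM against 37.0 CPM, a log2 ratio of 4.20 (2.83 to 6.07), and it was 4.94 without them. Lower in *APOE2* were *Btg2*, *Mylk*, *Gm19951*, *Nr4a1* and *Fam135a*, with log2 ratios from -1.91 to -1.83. *Btg2*, an antiproliferative early response gene, was at 169.5 CPM against 638 CPM, where 47.8% of the *APOE3* UMIs came from 1 cell. With the mean of each cell's CPM the log2 ratios of *Btg2* (-0.97) and *Mylk* (-0.77) were under 2-fold, and without the smooth muscle limit that of *Nr4a1* was (-0.78) and that of *Mylk* turned to 0.71.

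*APOE4* over *APOE3* was led by *Tmtc2*, *Igfbp7*, *Gxylt2*, *Car8* and *Sfrp1*, with log2 ratios from 1.93 to 2.53. *Igfbp7*, a secreted growth factor binding protein of vessels, was at 2059.9 CPM in *APOE4* and 388 CPM in *APOE3*, a log2 ratio of 2.41 that came to 1.17 without the deepest cell of each library. The *Igfbp7* log2 ratio was 4.14 (2.74 to 6.04) on the artery side and 1.92 (1.40 to 2.47) on the capillary side. *Sfrp1* was at 738 CPM against 194 CPM, a log2 ratio of 1.93 (1.24 to 2.68). That ratio kept between 1.82 and 2.34 under each alternative that gave a value, which those on the capillary side did not. In *APOE3* 71.4% of its 21 *Sfrp1* UMIs came from 1 cell, and in *APOE4* 44.6% of 101 did. *Smc1a*, *Spag9*, *Tsc22d1*, *Gadd45g* and *Btg2* were lower, with log2 ratios from -2.08 to -1.40. On the artery side that of *Tsc22d1* was -0.94, under 2-fold, and that of *Gadd45g* turned to 1.72, while that of *Spag9* came to -0.95 there without *Dcn*-rich cells. The capillary side without the *APOE3* cell rich in vein genes gave 0.73 for *Tmtc2*, from 3 UMIs against 1, and a bound of -0.27 for *Car8*, from 0 UMIs against 2.

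*APOE4* over *APOE2* was led by *Meg3*, *Efemp1*, *Sept4*, *Rflnb* and *Cdk8*, with log2 ratios from 1.94 to 2.30. *Efemp1*, the matrix protein fibulin 3, was at 299 CPM in *APOE4* and 71.1 CPM in *APOE2*, a log2 ratio of 2.07 (1.50 to 2.63), and all 41 *APOE4* UMIs lay in 9 artery-side cells. *Cdk8*, a kinase of the Mediator complex, was at 672 CPM against 175 CPM, with UMIs in 16 of 18 *APOE4* cells and at most 15.2% from 1 of them. The *Cdk8* log2 ratio was 2.55 on the artery side and 0.56 (-0.20 to 1.26) on the capillary side, under 2-fold. With the mean of each cell's CPM that of *Rflnb* was 0.50, also under 2-fold, as was that of *Meg3* on the artery side without *Dcn*-rich cells (0.81). Lower in *APOE4* were *Inhba*, *Igfbp5*, *Ccl21a*, *Rbp7* and *Sele*. *Igfbp5* had 932 UMIs in *APOE2*, of which 930 were in lymphatic cells, and none in *APOE4*. *Inhba*, the activin A subunit, had 364 UMIs in 13 *APOE2* cells and 1 in *APOE4*, a log2 ratio of -5.36 (-10.67 to -2.88). Without *Dcn*-rich cells it came to -2.27, with an interval (-7.62 to 0.33) that held 0.

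The *Dcn*-rich cells stood apart within *APOE2*; their limit of 10 *Dcn* UMIs was chosen after the values were seen. They were 18 of the 92 cells, 16 on the artery side and 2 on the capillary side, with 0 in *APOE3* and 1 in *APOE4*. Their median depth was 24929 UMIs, against 6872 in the other *APOE2* endothelial cells. *Lum*, another fibroblast proteoglycan, was at 619.7 CPM in them and 34.2 CPM in the others, and *Pdgfra*, a receptor that defines fibroblasts, gave 28 UMIs in 10 of them and 0 in the others. *Cdh5* was lower in them, at 239 CPM against 384 CPM, and *Cytl1* was at 1818 CPM against 3852 CPM. *Ccn2*, a matricellular gene induced by TGF-beta and stretch, was at 1674 CPM against 137 CPM, and *Inhba* was at 665 CPM against 38.4 CPM. Whether such droplets held more than 1 cell was not tested by a working doublet caller, and values without them are given above for some genes and lists, not for each gene named.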

How the data were processed

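The authors deposited, for each of the 3 libraries, raw UMI counts per gene and cell barcode. Per the file headers the counts came from Cell Ranger 7.0.1, and per the labels reads were aligned to mm10. Barcodes numbered 12288 in APOE2, 7247 in APOE3 and 8971 in APOE4, of which 11772, 6737 and 8248 passed the filter of 200 genes and 20% mitochondrial UMIs. Scrublet in scanpy 1.11.5 called 1, 0 and 2 doublets, so the caller had not worked and no cell was removed by it. UMIs were summed over the endothelial cells of a library and divided by their total (CPM), with exact Poisson intervals. Ratios of libraries have exact conditional binomial intervals (scipy 1.17.1). Thinning drew 1000 UMIs from each cell without replacement, leaving out shallower cells. Gene positions are those of GENCODE on GRCm38. The members of the groups and the lists were chosen with earlier results of these data known. Named genes were the marker genes, up to 4 members of each list with the highest CPM, the members of the artery, capillary, vein and lymphatic lists, the 5 genes with the largest ratio in each direction for each pair of libraries (at least 50 UMIs, in at least 3 cells, at most 50% from 1 cell), the 10 genes farthest above other cells, the 8 farthest apart between sides in each direction, and the genes the study names. *Scarb1* and *Gja5*, and the cells rich in *Dcn*, were described after their values were seen. The summing and the ratios were tested on simulated data.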

Additional observations from a re-analysis of the deposited data

Results flagged for a closer look

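In APOE2, 94 cells had the endothelial markers but were left out of the endothelial cells by their smooth muscle genes, against 0 in APOE3 and 1 in APOE4. The signal was looked at because it lies outside the cells described above and was absent from APOE3. All 94 exceeded the limit on *Acta2* and *Tagln*, and 71 of them also the limit on the C1q genes. Their median depth was 62793.5 UMIs (lowest 6692, highest 170897), and 51 had over 5 times the median UMIs of their library, as did 3 of the endothelial cells. *Acta2* and *Tagln* made up a median of 4.14% of their UMIs. The 5 marker genes gave a median of 13.5 UMIs, against 31 in the endothelial cells of APOE2. *Pecam1* was present in 94 of them, *Cdh5* in 71, the artery gene *Cytl1* in 85, *Dcn* in 82, the macrophage gene *Lyz2* in 76 and *C1qa* in 72. The capillary genes *Rbp7* and *Gpihbp1* were present in 15 and 7. In these cells the pan-endothelial list came to 697 CPM and the smooth muscle list to 56446 CPM. By the rule used for the endothelial cells, 77 were on the artery side, 15 on the capillary side, 1 was lymphatic and 1 undecided. Of the 94, 4 were in the highest 5% of doublet scores. The APOE4 cell had 22968 UMIs. What these droplets were was not tested.

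Close to the limits, 7 cells of APOE2 and 1 of APOE3 were taken with 5 or 6 marker UMIs, and 3 cells of APOE2 were left out with 4. A further 78 APOE2 cells, 40 APOE3 cells and 48 APOE4 cells had 5 or more marker UMIs but none from *Cdh5* or *Tie1*. Of the smooth muscle genes, 2 APOE2 cells inside the limit had between 0.5 and 1% of their UMIs, and 4 outside it had between 1 and 2%.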

How the results depend on the processing

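The share of endothelial cells kept its direction under each alternative run, and 23 of its 24 recomputed values stayed within the counting interval. The exception was APOE4 to APOE2 with neither the smooth muscle nor the C1q limit (chosen after seeing the data, as were the settings on *Dcn*-rich cells, on sides alone and on the cell rich in vein genes), at a log2 ratio of -2.78. Over the alternatives the log2 ratio of APOE2 to APOE3 ran from 2.44 to 3.56. Thinning each cell to 3000 UMIs, with a lower minimum of marker UMIs, left 57, 3 and 13 endothelial cells. The numbers on each side stayed within their intervals in all 27 recomputed values. Counts of genes past 2-fold moved by over 1.5 times in 20 cases and stayed within that in 70. For APOE2 to APOE3, with 315, they were 577 with the mean of each cell's CPM (218 higher and 359 lower, beside 180 and 135), 480 without the deepest cell of each library, 3993 with at least 5 UMIs and no CPM minimum (1160 higher and 2833 lower), 491 on the artery side, 621 on the capillary side and 641 there without the cell rich in vein genes. For APOE4 to APOE3, with 301, they were 1734 without the CPM minimum and 190 on the capillary side, where 596 genes were compared. For APOE4 to APOE2, with 251, they were 3543 without the CPM minimum (2322 higher and 1221 lower, beside 114 and 137) and 521 on the capillary side, with or without that cell. Without the CPM minimum a 0 still stood at 3 counts, which was 2.48 CPM in APOE2 and 27.7 CPM in APOE3. A gene with few UMIs in 1 library and 0 in the other could so count as lower where its UMIs were. The size and direction of those counts can therefore not be taken as differences in level. Without the smooth muscle limit 468 genes were past 2-fold for APOE2 to APOE3. Among values of single genes, 649 moved little, 139 moved by more than their interval and 10 reversed, counted as reversed only where the reported value was past 2-fold. *Mylk* turned to 0.71 for APOE2 to APOE3 without the smooth muscle limit. Without *Dcn*-rich cells *Dcn* turned to -0.036 and *Vcam1* to -0.16 for the same pair. On the artery side alone *Sox17* turned to 0.24 for APOE2 to APOE3, *Gadd45g* to 1.72 for APOE4 to APOE3 and *Lpl* to 2.68 for APOE4 to APOE2, the last from 6 UMIs of 1 cell. Without *Dcn*-rich cells as well, *Dcn* (-0.033) and *Sox17* (0.81) for APOE2 to APOE3 and *Gadd45g* (1.07) for APOE4 to APOE3 turned on that side. *Car8* turned to -0.27 for APOE4 to APOE3 on the capillary side without the cell rich in vein genes, a bound from 0 UMIs against 2. Beyond the construction of each setting, the causes were not tested. *Rbp7* stayed between 3.69 and 6.26 for APOE2 to APOE3 and between -6.31 and -4.61 for APOE4 to APOE2. For single genes, ratios against a library with 0 UMIs were not recomputed where 3 counts there came to more than the level of the other library. No paired analysis was possible because each genotype has 1 library and the labels carry no replicate numbers. Depth limits the values of APOE3 and APOE4 most, where 3 counts equal 27.7 and 21.9 CPM.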

Other observations

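Among genes of antigen presentation, *B2m*, the light chain of class I molecules, stood at 709 CPM for APOE2, 1007 CPM for APOE3 and 1315 CPM for APOE4. *H2-K1*, a class I heavy chain whose reads may be divided with related chains, was at 793 CPM, 1081 CPM and 1578 CPM, with a log2 ratio of APOE4 to APOE2 of 0.99 (0.77 to 1.21). None of the 3 genes of this list that were compared was past 2-fold in any pair over all endothelial cells, where 15.4%, 15.7% and 12.7% of all genes were. Without *Dcn*-rich cells *H2-K1* was past 2-fold higher in APOE4 than in APOE2 (1 of 3, where 5.98% of all genes were higher). On the artery side without those cells *B2m* and *H2-K1* both were (2 of 3, with 8.33% of all genes). By side, *H2-K1* was past 2-fold higher in APOE4 than in APOE2 on the artery side (log2 ratio 1.03) and than in APOE3 on the capillary side (1.15), and *H2-Ab1* lower in APOE2 than in APOE3 on the artery side (-2.62, from 17 and 8 UMIs). *Hes1*, a target of Notch, stood at 698 CPM for APOE2, 712 CPM for APOE3 and 278 CPM for APOE4. In APOE3 75.3% of the *Hes1* UMIs came from 1 cell, and on the artery side *Hes1* was at 753.5 CPM, 59.5 CPM and 164 CPM.

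Over all endothelial cells, where the opposite differences of the 2 sides are mixed, all 16 early response genes were compared for each pair, and 1 was higher and 3 lower in APOE2 against APOE3 (8.82% and 6.61% of all genes), 1 higher and 2 lower in APOE4 against APOE3 (8.22% and 7.44%), and 0 in either direction in APOE4 against APOE2 (12.7% of all genes). Their median log2 ratios were -0.11, -0.34 and 0.20.

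*Lrg1*, a secreted glycoprotein of activated endothelium, was at 385 CPM for APOE2, 37.0 CPM for APOE3 (4 UMIs) and 80.4 CPM for APOE4. The log2 ratio of APOE2 to APOE3 for *Lrg1* was 3.38 (2.02 to 5.26). Over all endothelial cells no cycling gene was compared in any pair, since none of the 8 on their list reached 100 CPM and 20 UMIs. On the capillary side 1 was, *Pcna*, at 78.2 CPM in APOE2 and 117.5 CPM in APOE3, from 18 and 4 UMIs.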
